A study of Mus musculus with 2 samples.

Results

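The replication-dependent core histone genes were taken as every gene whose symbol in the deposited gene table began with H2ac, H2bc, H3c or H4c followed by a number. This rule gave 59 of the 55414 genes in the table, of which 18 are by symbol H2A genes, 17 H2B, 12 H3 and 12 H4. Nuclei came from C2C12 cells, an established mouse myoblast line grown to near confluence, and were fixed in methanol. In 1 library the RNA in the nuclei was extended with yeast poly(A) polymerase during a warm incubation before 10x Chromium v3 capture (in situ polyadenylated), and in the other library this step was absent (standard). Each library loaded 3300 nuclei with a target of 2000, and there was 1 library of each kind, so the enzyme, its incubation and the library itself cannot be told apart. No comparison between the libraries has a replicate check.

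Core histones are the spools on which DNA is wound, and dividing cells make most of them while the genome is copied. The messages of these genes are unusual among those of animal cells, because they have no poly(A) tail and end just behind a short stem-loop that is bound by the stem-loop binding protein Slbp. The genes are short, mostly lack introns and lie in clusters, and many copies encode the same protein. Capture with oligo(dT), as in the Chromium kit, needs a stretch of A.

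The 3′ ends carry the feature that sets these genes apart, so stem-loops of some highly counted members of each family, and of the H2A genes that stood out, are shown first. H2ac22 and H4c11 are added for their less common stems. Sequences were read from GRCm39 and run 5′ to 3′ along the message, with the 16 bases of the stem-loop in capitals, 12 bases before it and 2 bases after it.
H2ac15 (chr13:21937550-21937579, minus strand): ccaaccaccaaaGGCTCTTTTCAGAGCCac
H2ac22 (chr13:21970946-21970975, minus strand): ttaaaaaacaaaGGCTCTTTTCAGAGCTaa
H2ac24 (chr13:22017197-22017226, minus strand): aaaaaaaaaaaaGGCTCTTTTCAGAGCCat
H2ac23 (chr13:21995056-21995085, plus strand): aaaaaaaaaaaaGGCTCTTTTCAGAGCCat
H2ac8 (chr13:23754840-23754869, minus strand): aaaaaaaacaaaGGCTCTTTTCAGAGCCat
H2bc11 (chr13:22227796-22227825, plus strand): accaaatccaaaGGCTCTTTTCAGAGCCac
H2bc14 (chr13:21906664-21906693, plus strand): tccaaacacaaaGGCTCTTTTCAGAGCCac
H3c1 (chr13:23945871-23945900, minus strand): gaattaaccaaaGGCTCTTTTCAGAGCCac
H3c3 (chr13:23929028-23929057, minus strand): tatttaaaaaaaGGCTCTTTTAAGAGCCac
H4c14 (chr3:96170253-96170282, minus strand): cccatccctaacGGCCCTTTTTAGGGCCaa
H4c6 (chr13:23735463-23735492, minus strand): ttctttctcaaaGGCCCTTTTCAGGGCCac
H4c11 (chr13:21919595-21919624, plus strand): tatttccctaaaGGTCCTTTTCAGGACCac
An exact match to the stem-loop pattern lay within 120 bases of the stop codon in 56 of the 59 genes. H2ac22 matched with 1 mismatch, at the last base of the stem. H2bc21 had no match in that window, and no stop codon was annotated for H2ac14, which the GENCODE M39 annotation names H2ac14-ps and lists as a transcribed unitary pseudogene. The distance from stop codon to stem-loop ran from 21 to 58 bases, with a median of 30. The form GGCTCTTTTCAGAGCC was held by 34 genes, none of them H4, and the form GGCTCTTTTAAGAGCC by 8. All 12 H4 genes had a different stem, in 7 of them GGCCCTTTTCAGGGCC. The bases before the loop separated a few H2A genes from the others. H2ac23 and H2ac24, whose coding sequences are identical, both had 12 consecutive A bases directly before the stem-loop, and H2ac8 had a run of 8. In the remaining 54 genes with a stem-loop the longest run of A between stop codon and stem-loop was at most 7 bases, in H3c3.

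In the annotation 51 of the 59 genes had single-exon transcripts only. H2bc4, H2bc23 and H2bc24 had more than 1 exon in every transcript. The 17 coding H2A genes encoded 8 different proteins, the 17 H2B genes 10, the 12 H3 genes 2 and the 12 H4 genes 1. This likeness limits the values of single genes. Stretches of 31 bases, the unit that kallisto matches, occurred in no other annotated gene for a median of 38.1% of each gene's stretches, and for under 10% in 11 genes. The value was 97.7% for H4c14 and 6.64% for H2ac24. The annotated transcript ended before the end of the stem-loop in 15 genes, 0 to 100 bases past it in 21 and over 100 bases past it in 21.

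The genes lay in 3 blocks, and 15 neighbouring pairs faced away from each other with starts within 1000 bases, 13 of them an H2A gene beside an H2B gene. In GRCm39 one block held 23 members at chr13:21899933-22227846, the next held 26 at chr13:23715220-24118834, and the last held 10 at chr3:96127181-96177448. RefSeq promoter sequences (GRCm38.p6, from 250 bases before to 50 after the start) were matched for 52 members, giving 53 promoters. The octamer ATTTGCAT, searched on both strands, was in 7 of 15 H2B and 6 of 17 H2A promoters, in 0 of 10 H3 and 0 of 11 H4 promoters, and in 1.74% of all 32851 promoters. CCAAT was in every H2A, H2B and H3 promoter matched but in 3 of 11 H4 promoters, against 37.4% of all promoters. TATAAA was in 30 of the 53, against 13.6%. The promoter below is that of the octamer-bearing H2B gene with the most unique molecular identifiers (UMIs), with CCAAT and the octamer, on either strand, in capitals. The window is the 250 bases before the start, chr13:21721794-21722043 on the plus strand of GRCm38.p6.
H2bc14: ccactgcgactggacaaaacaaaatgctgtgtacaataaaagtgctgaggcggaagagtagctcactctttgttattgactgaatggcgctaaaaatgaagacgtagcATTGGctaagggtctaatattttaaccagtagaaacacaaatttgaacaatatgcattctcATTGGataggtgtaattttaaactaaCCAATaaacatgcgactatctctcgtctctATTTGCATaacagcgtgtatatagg

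Values below are UMIs, summed over the nuclei with more than 750 kallisto UMIs and under 5% mitochondrial UMIs. A UMI is meant to mark 1 captured molecule, but kallisto UMIs are estimated counts that are partly not whole numbers. These were 1335 in situ polyadenylated and 1123 standard nuclei with 1974403 and 1382984 kallisto UMIs (medians per nucleus 1088 and 996), and no barcode was shared. The STAR matrix held 1328 and 1123 of the same barcodes with 11545281 and 6237950 UMIs. Ribosomal RNA took 48.6% of the kallisto UMIs of the in situ polyadenylated nuclei and 29.7% of those of the standard nuclei. Over protein-coding genes the log2 ratio of CPM (UMIs scaled to a library total of 1000000), in situ polyadenylated over standard, had a median of -1.19 by kallisto (2114 genes) and -1.92 by STAR (7746 genes). The relative log2 ratio is the log2 ratio of a gene minus this median. Its 95% interval covers counting error only and treats each UMI as a separate molecule. The nuclei were handled with the RNase inhibitor SUPERase-In. For tissue sections the paper reports that this inhibitor failed to keep longer transcripts intact during polyadenylation. Whether such loss has a part in the protein-coding median was not tested. Myoblast markers were present, with Vim, the cytoskeletal protein vimentin, at 922 and 1314 UMIs, and Des, the muscle protein desmin, at 360 and 636 UMIs. The myogenic factor Myod1 had 15 and 13 UMIs, Myf5 6 and 9, Chrna1 8 and 18, and Vcam1 7 and 35. Cdh15 had 42 and 96 UMIs, and Itga7 175 and 228. Of 6 genes listed for cells the culture should lack, Pecam1 had 10 and 35 UMIs, above Myod1 in the standard nuclei. The blood cell gene Ptprc had 0 and 4, Tubb3 2 and 3, and Alb, Krt18 and Epcam 0 in both. By STAR Pecam1 had 70 and 53 UMIs and Tubb3 35 and 38.

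Core histone UMIs were far more frequent in the in situ polyadenylated nuclei. The 59 genes together had 3866 UMIs there and 588 in the standard nuclei, which were 0.196% (95% Clopper-Pearson interval 0.190% to 0.202%) and 0.0425% (0.0391% to 0.0461%) of all kallisto UMIs. The relative log2 ratio of the sum was 3.396 (3.27 to 3.52), and in CPM alone, without subtracting the protein-coding median, it was 2.20. STAR gave 3749 and 823 UMIs and a relative log2 ratio of 3.22 (3.11 to 3.33). The gap in CPM was narrower by STAR, at 325 and 132 CPM.

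The 4 families did not gain alike. H2A, which forms the outer dimer of the nucleosome with H2B, had 1442 UMIs after in situ polyadenylation and 455 in the standard nuclei. H2B had 1111 and 57. H3, which pairs with H4 in the inner tetramer, had 730 and 56 UMIs. H4 had 583 and 21. The relative log2 ratio was 2.34 (2.19 to 2.50) for H2A and 4.96 (4.58 to 5.37) for H2B. It was 4.38 (3.99 to 4.80) for H3 and 5.47 (4.85 to 6.18) for H4. The H2A interval lay below the other 3. The H2B interval overlapped those of H3 and H4, which narrowly missed each other. Without the 5% of nuclei with the most UMIs, H3 was at 4.53 (4.07 to 5.03) and H4 at 5.19 (4.53 to 5.94), with overlap. As the intervals cover counting error only, they do not rank H2B, H3 and H4. H2A supplied 77.3% of the core histone UMIs of the standard nuclei and 37.3% of those of the in situ polyadenylated nuclei. By STAR the sums were 990 and 471 UMIs for H2A, 981 and 182 for H2B, 676 and 95 for H3, and 1102 and 75 for H4. H4 was thus the family with the most STAR UMIs and the fewest kallisto UMIs after polyadenylation. The order of the relative log2 ratios by STAR was 2.11 for H2A, 3.46 for H2B, 3.87 for H3 and 4.91 for H4. In STAR CPM the H2A sum differed little between libraries, at 85.7 and 75.5 CPM.

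**Figure D1:**
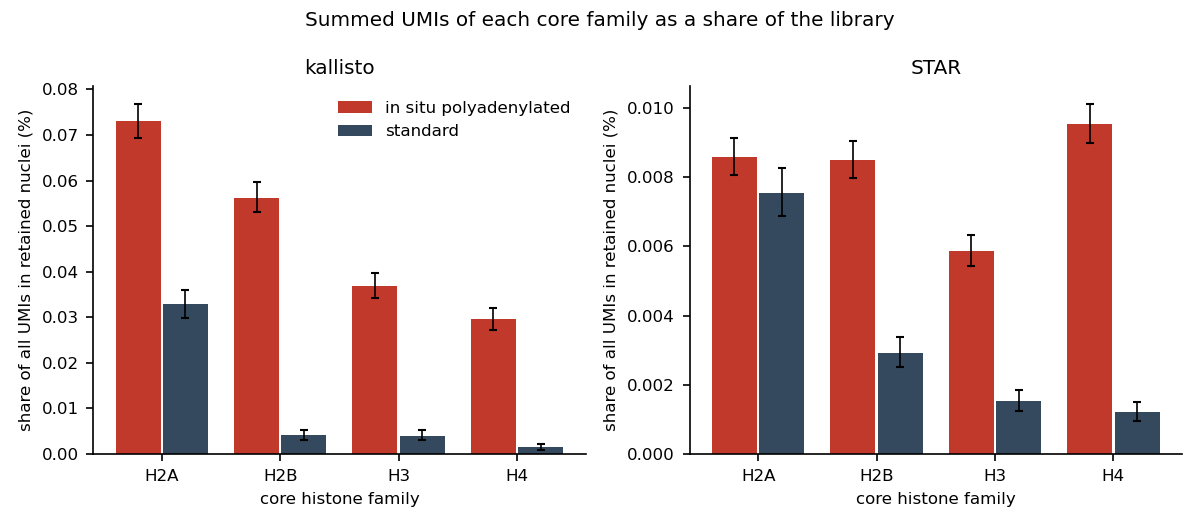
Summed UMIs of the H2A, H2B, H3 and H4 genes as a percentage of all UMIs in retained nuclei, by kallisto (left) and STAR (right, on its own scale), in the in situ polyadenylated (red) and standard (dark) library. Bars start at 0 and error lines are 95% Clopper-Pearson intervals; the dark bar is tallest for H2A in both matrices.

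Most of the standard H2A signal came from a pair of genes. H2ac24 had 205 UMIs in the standard nuclei and 126 in the in situ polyadenylated nuclei, the only member with over 100 UMIs to be lower in the latter. Its relative log2 ratio was -0.02 (-0.35 to 0.30), and STAR gave 253 and 140 UMIs with 0.18 (-0.13 to 0.48), the single member whose sign differed between the matrices. Its kallisto UMIs lay in 36 standard and 22 in situ polyadenylated nuclei, up to 38 and 30 of them in 1 nucleus, and 5 nuclei held 41.8% and 63.1%. The counting interval treats these UMIs as independent. H2ac8 had 114 UMIs in the standard and 174 in the in situ polyadenylated nuclei, a relative log2 ratio of 1.29 (0.94 to 1.64), and by STAR 90 and 75 UMIs, a relative log2 ratio of 0.77 (0.31 to 1.23). H2ac24 and H2ac8 made up 54.1% of all core histone UMIs of the standard nuclei and 7.74% of those of the in situ polyadenylated nuclei. Without them, an alternative chosen after the values were seen, the relative log2 ratio was 3.74 (3.48 to 4.01) for H2A and 4.40 (4.22 to 4.59) for all members.

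H2ac24 and H2ac8 are also 2 of the 3 members with 8 or more A bases in a row before the stem-loop, as the sequences above show. The third, H2ac23, had 10 UMIs in the standard and 19 in the in situ polyadenylated nuclei by kallisto and 0 in both by STAR. As only 6.22% of its 31-base stretches are in no other gene, its UMIs and those of H2ac24 can be read only together. The 3 genes summed to 328 standard and 318 in situ polyadenylated UMIs, a relative log2 ratio of 0.63 (0.41 to 0.86). The 54 genes with runs of at most 7 A summed to 258 and 3544 UMIs, a relative log2 ratio of 4.46 (4.28 to 4.65). The split at 8 A was not among the comparisons set beforehand. It groups the 2 genes already singled out by their standard counts, so the contrast of these sums follows from that choice. The 10 standard UMIs of H2ac23 were all in 1 nucleus. The highest standard count among those 54 was 29, and their median was 2.5 UMIs. H2ac8 has in addition an annotated end 151 bases past its stem-loop and the poly(A) signal AATAAA at base 172 after its stop codon. Within 300 bases of the stop codon AATAAA was found in H2bc6, H3c8 and H4c1 as well. Whether a run of A, AATAAA or the annotated end has a part in these counts was not tested.

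**Figure D2:**
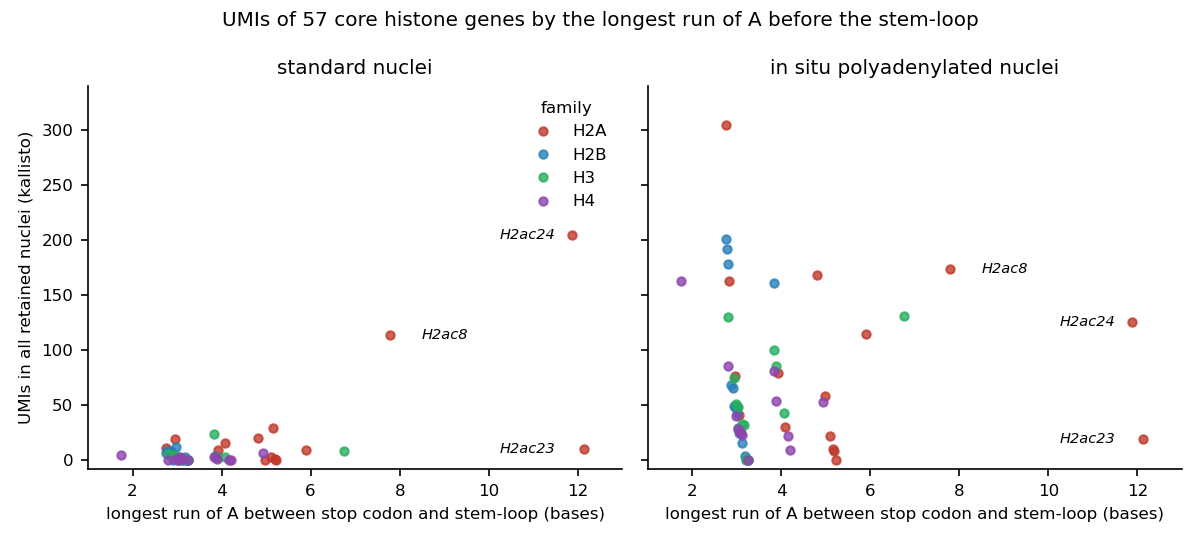
UMIs of the 57 members with a stem-loop (y axis, kallisto, all retained nuclei) against the longest run of A between stop codon and stem-loop (x axis, bases), coloured by family, with points shifted slightly sideways to part them. In standard nuclei (left) H2ac24 at 205 and H2ac8 at 114 UMIs stand above the other members, none of which exceeded 29, and in in situ polyadenylated nuclei (right) many members with short runs lie at the same height.

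Among single genes, 47 of the 59 reached the minimum of 20 UMIs in both libraries together and 12 did not. Of the 47, 45 had a relative log2 ratio of at least 1, against 3.63% of the 8430 genes tested, and 0 had one of -1 or less, against 11.6%. The median over the 47 was 4.71, and over all 8430 genes -0.21. These counts carry little weight for the weakly captured genes, because 42 of the 47 passed the minimum only with the help of the in situ polyadenylated library. Of the 5 that had 20 or more UMIs in the standard nuclei alone, 3 had a relative log2 ratio of at least 1. By STAR 42 genes reached the minimum and 40 of them had a relative log2 ratio of at least 1, against 15.9% of 13858 genes, and 0 had one of -1 or less, against 2.81%. In CPM, kallisto gave 50 members a higher and 3 a lower value in the in situ polyadenylated nuclei.

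**Figure D3:**
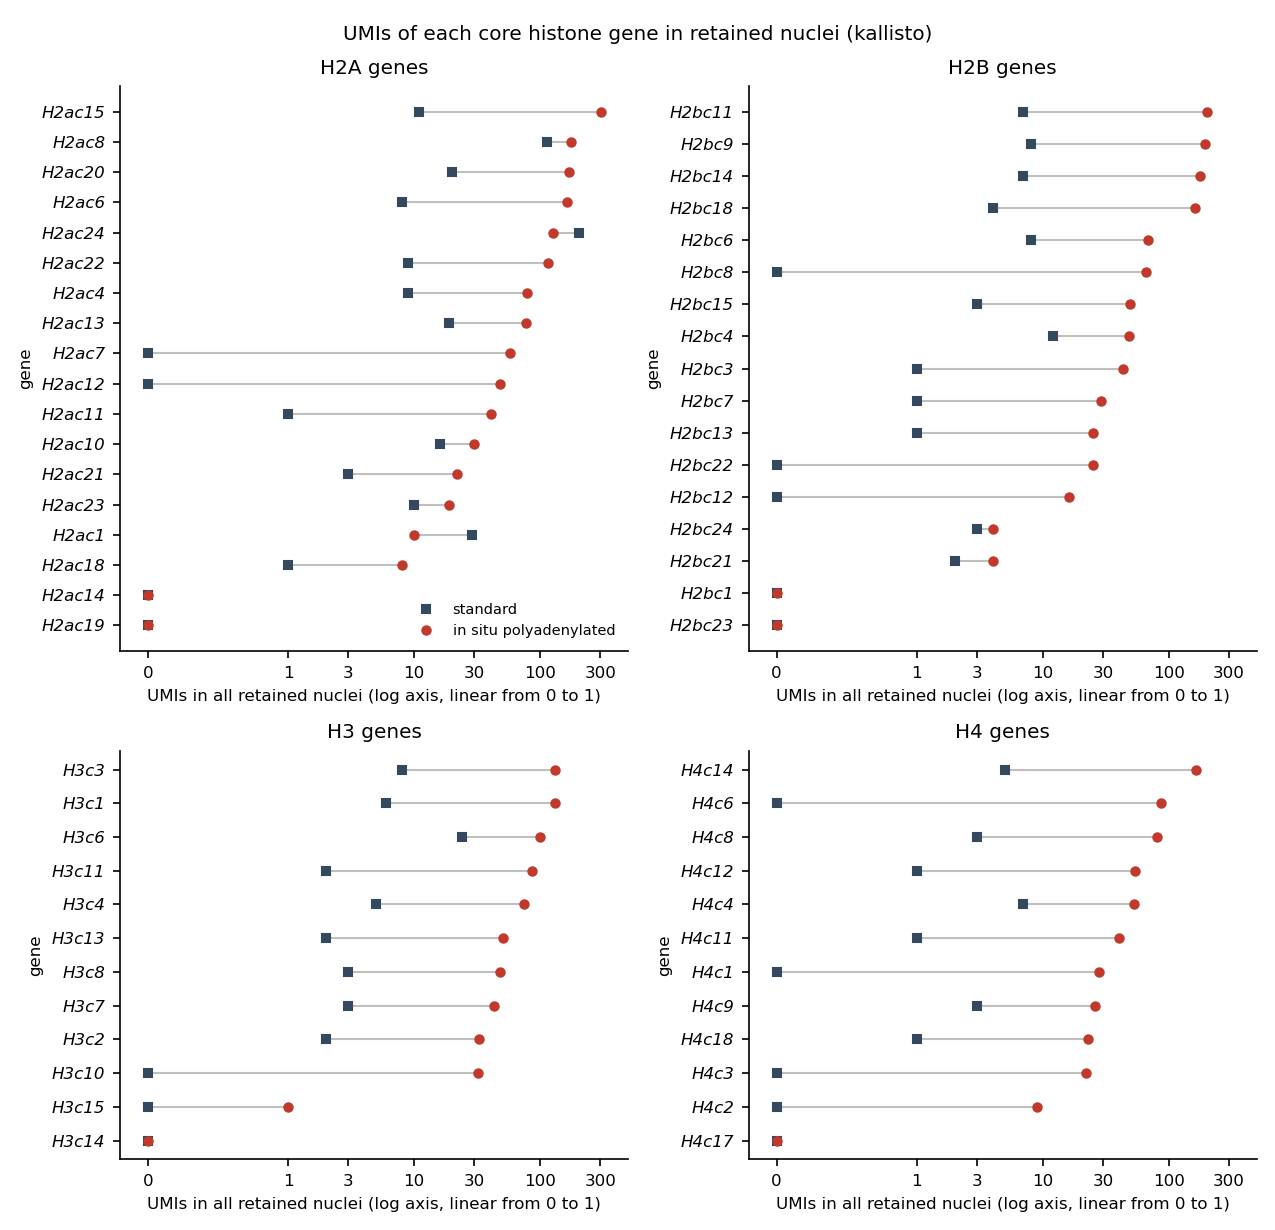
UMIs of each of the 59 genes in the standard (dark squares) and in situ polyadenylated (red circles) nuclei, by kallisto, on a log axis that is linear from 0 to 1, with 1 panel for each family and a grey line joining the values of a gene. Circles lie to the right of squares except at H2ac24 and H2ac1 and where both are at 0.

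Among H2A genes the highest count after polyadenylation was that of H2ac15, with 305 UMIs against 11 in the standard nuclei and a relative log2 ratio of 5.47 (4.61 to 6.49). H2ac20 had 168 and 20 UMIs, a relative log2 ratio of 3.75 (3.08 to 4.50). H2ac6 had 163 and 8 UMIs, with 5.03 (4.02 to 6.26). H2ac6 and the H2B gene H2bc4 overlap on opposite strands. H2ac1, which lies apart from the others beside H2bc1 and is known from testis, had 10 and 29 UMIs and a relative log2 ratio of -0.86 (-2.06 to 0.22). Its kallisto UMIs were spread over 10 and 25 nuclei with at most 2 in a nucleus, and STAR counted 0 in both libraries. The lowest 3 relative log2 ratios among the 47 genes that reached the minimum, at H2ac1, H2ac24 and H2ac8, were thus all in H2A.

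The H2B genes moved more evenly. H2bc11 had 201 UMIs in the in situ polyadenylated and 7 in the standard nuclei, H2bc9 192 and 8, H2bc14 178 and 7, and H2bc18 161 and 4. Their relative log2 ratios were 5.52, 5.26, 5.35 and 6.01, with overlapping intervals. STAR gave comparable counts for H2bc11 (214 and 18), H2bc9 (156 and 9) and H2bc14 (154 and 14). It counted no UMI of H2bc18, a gene that shares its strand and place with the annotated gene Gm42743. H3c13 overlaps Gm42743 on the same strand as well, and STAR counted 105 and 8 UMIs of it. What part the overlap has in these counts was not tested. H2bc3 had 43 and 1 UMIs, a relative log2 ratio of 6.11 (3.55 to 11.4), one of the 3 highest among genes with a UMI in both libraries. H2bc21, without a stem-loop in the window searched, had 4 and 2 UMIs, a difference not detectable at this depth. H2bc24 had 4 and 3 UMIs. H2bc4, with 2-exon transcripts only, had 48 and 12 UMIs and a relative log2 ratio of 2.68 (1.74 to 3.73), the lowest of the 12 H2B genes that reached the minimum. The matrices parted at H2bc6, where kallisto gave 68 and 8 UMIs but STAR 96 and 86. Its relative log2 ratio was 3.77 by kallisto and 1.19 by STAR. H2bc6 was named after its values were seen, and its annotation overlaps H1f4 and Gm11398 on the same strand and H4c4 and Gm33387 on the opposite strand. H1f4, a linker histone gene, had 2483 and 1402 UMIs by STAR. What part these overlaps have in the H2bc6 counts was not tested.

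In H3, the histone whose tail carries many of the known modifications, H3c3 had 131 UMIs in the in situ polyadenylated and 8 in the standard nuclei. H3c1 had 130 and 6, H3c6 100 and 24, and H3c11 86 and 2 UMIs. H3c6 was the H3 gene most often counted in standard nuclei, where it made up 24 of the 56 H3 UMIs. Its relative log2 ratio of 2.74 (2.08 to 3.45) was the lowest of the 10 H3 genes that reached the minimum, and that of H3c11, 6.11 (4.21 to 9.17), was the highest of those with a UMI in both libraries. STAR gave H3c6 98 and 28 UMIs, close to the kallisto values.

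The H4 genes, all of which encode the same protein, had the fewest standard UMIs. H4c14 had 163 UMIs in the in situ polyadenylated and 5 in the standard nuclei by kallisto and 279 and 10 by STAR. Its sequence is nearly all its own, and its relative log2 ratios of 5.71 (4.45 to 7.35) and 5.84 (4.94 to 6.91) overlapped. H4c6 had 86 and 0 kallisto UMIs, so that its relative log2 ratio was at least 5.52, taken against a floor of 3 UMIs for the library. STAR counted 218 and 2 UMIs of H4c6. H4c8 had 81 and 3 UMIs, and H4c12 had 54 and 1, a relative log2 ratio of 6.43 with a wide interval of 3.89 to 11.8. This was the highest among members past the minimum with a UMI in both libraries, and genes known only by a lower bound cannot be ranked against it. By STAR H4c6 was at 7.80. The 10 H4 genes that reached the minimum had a relative log2 ratio, or a lower bound of it, of at least 3.55.

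**Figure D4:**
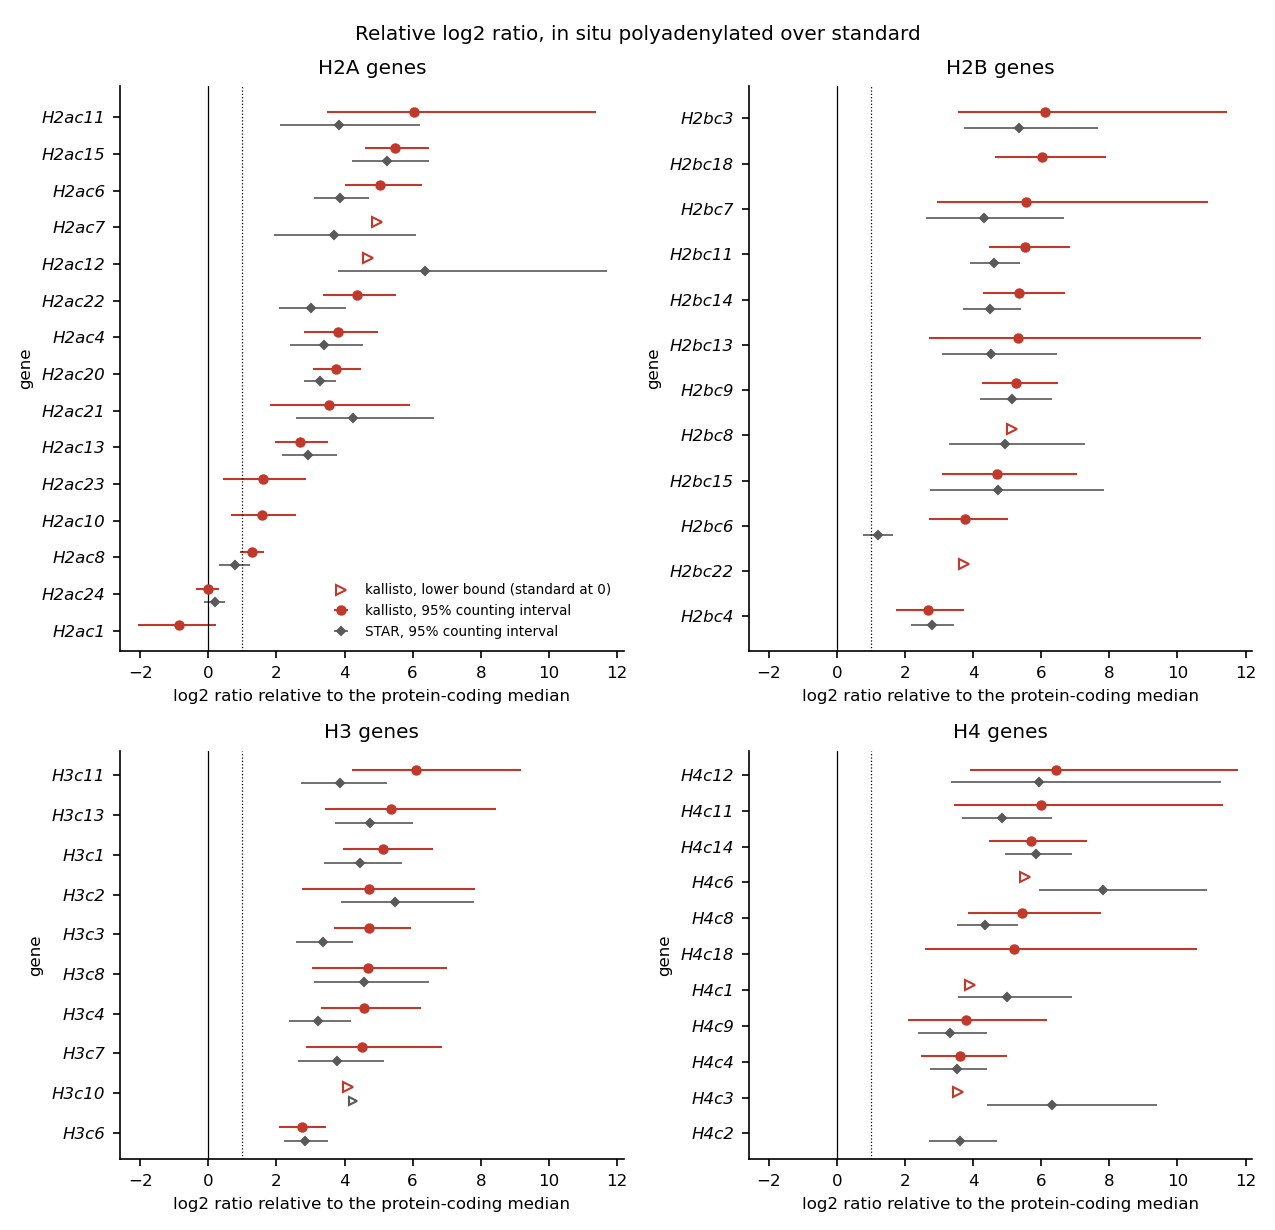
Relative log2 ratio (x axis, in situ polyadenylated over standard) of each member whose UMIs summed over both libraries reached 20, by kallisto (red) and STAR (grey), in 1 panel for each family. Lines are 95% counting intervals, open triangles are lower bounds where the standard library had 0 UMIs, the solid line marks 0 and the dotted line 1; by kallisto H2ac1, H2ac24 and H2ac8 lie lowest.

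The 12 genes below the minimum included 6 with 0 kallisto UMIs in both libraries. H2ac19, H3c14 and H4c17 had 0 UMIs in both libraries and both matrices, and for H2ac19 and H3c14 every 31-base stretch also occurs in another gene. A count of 0 allows up to 3 UMIs in a library. Levels of different genes were also set per length, as CPM per kilobase of the longest annotated transcript in the in situ polyadenylated nuclei. On this scale H2ac15 was highest at 393, followed by H2bc11 at 220, H2bc18 at 214, H2bc14 at 172 and H2ac20 at 164 CPM per kilobase. The annotated lengths differ in whether they reach past the stem-loop, which moves this order. As a UMI is meant to mark a molecule whatever its length, this scale lowers genes with long annotations. H2ac6, with 163 UMIs and a longest transcript of 2482 bases, was at 33.2 CPM per kilobase. The UMIs themselves are the more direct measure.

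Position divided the members less than family did. The relative log2 ratio of the summed UMIs was 3.07 (2.89 to 3.26) for the first block on chromosome 13, which holds H2ac24, 3.43 (3.24 to 3.62) for the next block, which holds H2ac8, and 4.61 (4.13 to 5.12) for the block on chromosome 3. Partners of a divergent H2A and H2B pair often differed in level. After in situ polyadenylation H2ac15 had 305 UMIs and its partner H2bc15 49, while H2ac11 had 41 and its partner H2bc11 201. H2ac24 with 205 standard UMIs faced H2bc24 with 3, and H2ac8 with 114 faced H2bc8 with 0. In 7 of the 13 pairs both genes reached 20 UMIs. Genes were also grouped by where their annotated 3′ end lies. The 15 genes annotated to end before the stem-loop had a relative log2 ratio of 4.09 (3.80 to 4.40), the 21 ending up to 100 bases past it 3.04 (2.86 to 3.23), and the 21 ending further on 3.402 (3.19 to 3.62). Single genes weigh on these sums, as H2ac24 held 205 of the 284 standard UMIs of the middle class and H2ac8 114 of the 202 of the last. The medians over the genes that reached the minimum were 4.69, 5.03 and 3.90 in the same order.

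Genes around the core histones separated in the same comparison. Of the 6 linker histone genes, which encode the H1 proteins that bind DNA between nucleosomes, 5 had a relative log2 ratio of at least 1, against 3.63% of all genes tested. H1f3 had 3688 UMIs in the in situ polyadenylated and 285 in the standard nuclei, a relative log2 ratio of 4.37 (4.20 to 4.55). H1f0, whose message is known to be polyadenylated, had 165 and 278 UMIs and -0.07 (-0.36 to 0.21). Of the 11 genes listed as replication-independent core variants, 9 reached the minimum and 2 had a relative log2 ratio of at least 1. These were H2ax, known to give both stem-loop and poly(A) messages, with 1031 and 47 UMIs, and H4f16 with 156 and 3. H4f16 is an H4 gene whose symbol the rule for members leaves out, and its relative log2 ratio was 6.38 (4.81 to 8.67). Whether H4f16 belongs with the replication-independent genes was not tested. H3f3b, which encodes the replacement histone H3.3 and has a poly(A) message, had 177 and 277 UMIs and 0.03 (-0.25 to 0.31), and H2az1 had 85 and 121 UMIs and 0.17 (-0.25 to 0.58).

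Of 22 genes for transcription and 3′ processing of histone messages, 16 reached the minimum, 0 had a relative log2 ratio of at least 1 and 1 had one of -1 or less, against 3.63% and 11.6% of all genes tested. Slbp had 19 UMIs in the in situ polyadenylated and 38 in the standard nuclei, with -0.32 (-1.20 to 0.51). Npat, which drives histone gene transcription, had 28 and 57 UMIs and -0.35 (-1.05 to 0.33). Casp8ap2, a partner of Npat at histone gene clusters, had 71 and 207 UMIs, with -0.86 (-1.27 to -0.47). Of 34 DNA replication genes that reached the minimum 0 had a relative log2 ratio of at least 1 and 2 had one of -1 or less, and of 25 mitosis genes 0 and 2, beside the same 3.63% and 11.6%. By STAR 1 of 35 DNA replication genes had a relative log2 ratio of at least 1, against 15.9% of all genes.

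In single nuclei, at least 1 core histone UMI was found in 815 of 1335 in situ polyadenylated nuclei, 61.0% (58.4% to 63.7%), and in 222 of 1123 standard nuclei, 19.8% (17.5% to 22.2%). With each nucleus thinned to 750 UMIs, which left out 3 standard nuclei, the shares were 50.9% (48.2% to 53.7%) and 14.5% (12.5% to 16.7%). After thinning, H2A was found in 278, H2B in 300, H3 in 202 and H4 in 214 of the 1335 in situ polyadenylated nuclei. The standard nuclei had 110, 26, 26 and 15 of 1120. By kallisto the share of core histone UMIs was highest in the deepest nuclei of either library. It was 0.169% in the 334 shallowest and 0.233% in the 334 deepest in situ polyadenylated nuclei, and 0.0273% and 0.0570% in the 281 shallowest and 281 deepest standard nuclei. By STAR the same groups of nuclei had 0.0341% and 0.0324%, and 0.0134% and 0.0138%.

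Free RNA limits what single nuclei can show. Among in situ polyadenylated barcodes with 1 to 100 UMIs, which are too shallow to be nuclei, core histone genes took 0.218% (0.212% to 0.225%) of the UMIs, above the 0.196% in nuclei. Against these barcodes the summed share in nuclei did not stand above background. H2A was at 0.0516% in the shallow barcodes and 0.0731% in nuclei, and H4 went the other way, at 0.0628% and 0.0295%. The order of the summed share turned with the range of barcodes. Those with over 100 and up to 500 UMIs had 0.155%, under the share in nuclei by 0.34 on the log2 scale (0.27 to 0.40). The log2 ratio of nuclei over these barcodes was 0.41 (0.30 to 0.53) for H2A, 0.32 (0.19 to 0.45) for H2B and 0.47 (0.31 to 0.63) for H3, but 0.05 (-0.12 to 0.22) for H4. In the standard library the shallow barcodes had 0.0258% (0.0238% to 0.0279%) and the nuclei 0.0425%, a difference carried by H2A at 0.0161% and 0.0329%.

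Families were found together in single nuclei somewhat more often than the product of their shares. In the thinned in situ polyadenylated nuclei, 655 had no core histone UMI, 441 had UMIs of 1 family, 177 of 2, 49 of 3 and 13 of all 4. H2A and H2B were found together in 88 nuclei, where the product of their shares gives 62.5. H2B and H3 were found together in 71 nuclei against 45.4, H2B and H4 in 75 against 48.1, and H3 and H4 in 45 against 32.4. Over all 6 pairs the ratio of observed to product was 1.46. Thinned STAR counts gave 1.16, from 31 pairings against 26.8, too few to decide whether the excess by kallisto was matched. Without thinning STAR gave 1.25, from 1862 pairings against 1484, in nuclei of unequal depth. The standard nuclei gave 17 pairings against 7.88. Correlations of family counts across the 1335 thinned nuclei were 0.145 to 0.270, a weak relation in sparse counts of 1 library and no finding. Nuclei with a UMI of the DNA replication list had a core histone UMI in 50.7% of cases and those without one in 51.1%. For the mitosis list the shares were 53.8% and 47.1%. The mean number of core histone UMIs was 1.45 with and 1.25 without a DNA replication UMI, and 1.48 and 1.15 for the mitosis list. Correlations of the counts were 0.123 for DNA replication and 0.087 for mitosis, and 0.016 and 0.039 in thinned STAR counts. The shares, means and correlations thus do not rank the 2 lists alike. Of the 1328 thinned STAR nuclei 1046 had no core histone UMI, too sparse to tell whether the kallisto correlations were matched.

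**Figure D5:**
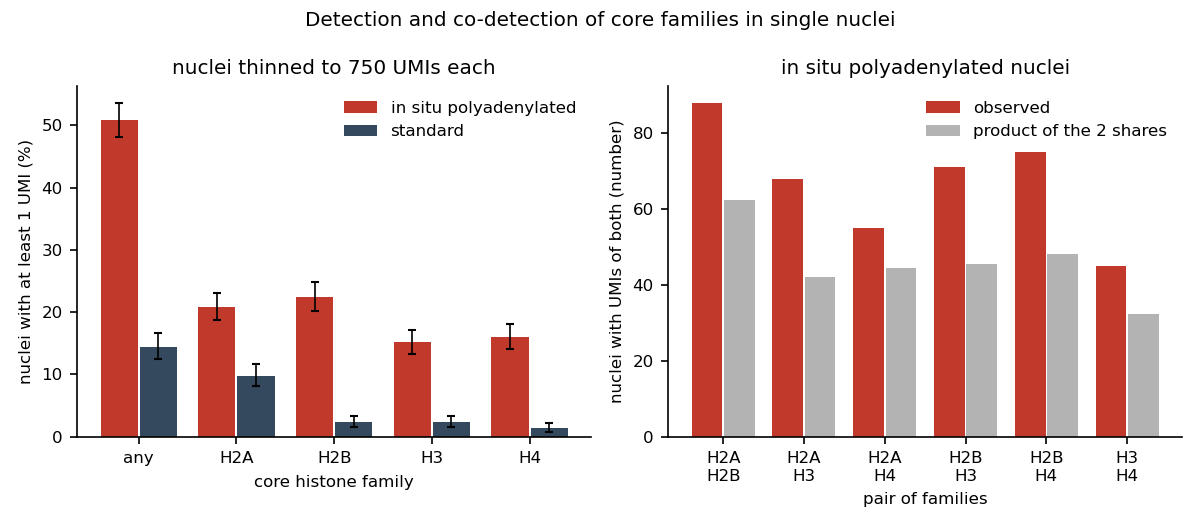
Left, percentage of nuclei, each thinned to 750 UMIs, with at least 1 UMI of any core histone gene or of each family, in the in situ polyadenylated (red) and standard (dark) library, with 95% Clopper-Pearson intervals. Right, number of in situ polyadenylated nuclei with UMIs of both families of a pair (red) beside the product of the 2 shares (grey); the observed number is higher for each of the 6 pairs, from 45 to 88 nuclei.

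High counts in single nuclei rested on the matrix used. The highest kallisto sum of core histone UMIs was 78 in an in situ polyadenylated nucleus that had 25 by STAR, and 40 in a standard nucleus that had 10 by STAR. For H2A the highest nucleus had 35 UMIs by kallisto and 5 by STAR, and in the standard library 38 and 7. Of 58 kallisto UMIs of H2ac7 in the in situ polyadenylated library 35 were in 1 nucleus, a gene named after its values were seen. The variance of the counts over their mean is 1 for molecules placed independently at random in nuclei of equal depth. In the in situ polyadenylated nuclei it was 11.4 for all members by kallisto and 3.43 by STAR. For H4, whose highest nucleus had 11 UMIs by kallisto and 10 by STAR, it was 2.41 and 1.80. These values come from nuclei of unequal depth. Thinned to 750 UMIs a nucleus, they were 3.67 and 1.04 for all members and 1.38 and 0.99 for H4. Thinning left a mean of 1.34 core histone UMIs a nucleus by kallisto but 0.24 by STAR. A mean this low brings the ratio toward 1, so the thinned values cannot compare the matrices. Of the member entries in kallisto nuclei 20.8% in the in situ polyadenylated and 9.26% in the standard library were not whole numbers, and no entry was below 1. The sources used here do not say how UMIs shared between genes were handled.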

How the data were processed

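Single-nucleus RNA-seq counts of 2 libraries were analysed, 1 in situ polyadenylated and 1 standard, grouped by their labels. The authors trimmed reads with cutadapt 3.4 and counted them with kallisto 0.48.0 and bustools 0.41.0 on GRCm39 with GENCODE release 28, strand-aware and with 31-base matches, and with STAR 2.7.10a on the same reference. The kallisto matrices, as deposited, hold estimated counts (UMIs, some of them not whole), and the deposited STAR matrices hold whole UMI counts. The STAR feature setting, how shared UMIs were handled and how its barcodes were chosen are not given in the sources used here. Gene features came from GENCODE release 39, to which all 59 members matched, and promoters from RefSeq.

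Barcodes with more than 750 kallisto UMIs and under 5% mitochondrial UMIs were kept, as in the study's methods, and no doublets were removed. Kallisto sums were rounded to whole numbers for the ratios. With 1 library a group no test was possible. Intervals were exact, conditional on the summed counts (ratios) or Clopper-Pearson (shares), at 95%, and cover counting error only, although PCR copies were already collapsed by UMI. The protein-coding median used genes with 50 or more UMIs in each library, and a 0 was set to 3 UMIs. Single genes needed 20 UMIs in both libraries together. The stem-loop search allowed 2 mismatches. Ratio and thinning code was tested on simulated data. Python 3.11.15, numpy 2.4.6 and scipy 1.17.1 were used.

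The members, lists and comparisons were chosen with earlier results of these data known. Genes were named as the 4 of each family with the most kallisto UMIs in in situ polyadenylated nuclei, the 5 with the most in standard nuclei, the 3 highest and 3 lowest relative log2 ratios, those with 0 UMIs throughout, those whose sign differed between matrices, those without a stem-loop or with multi-exon transcripts only, and fixed genes of the lists. Other names were chosen after their values were seen. The alternatives were the STAR matrix, other UMI and gene minimums, other scalings, all STAR barcodes, leaving out the deepest nuclei, thinning and other ranges of low-UMI barcodes.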

Additional observations from a re-analysis of the deposited data

Results flagged for a closer look

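H2bc1, an H2B gene known from testis, had 0 kallisto UMIs in both libraries, while STAR counted 13 UMIs after in situ polyadenylation and 0 in the standard nuclei. It was picked out because the signal appears only in the matrix that the main values do not use, above the limit of 3 UMIs that a count of 0 allows. Its annotated transcript ends 43 bases before the end of its stem-loop.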

How the results depend on the processing

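Under STAR, other UMI minimums, all STAR barcodes, leaving out the deepest nuclei and both other scalings, the values of all members and of each family stayed above 0 and H2A stayed below H2B, H3 and H4. By STAR the value was 3.22 for all members, 2.11 for H2A, 3.46 for H2B and 3.87 for H3. With a minimum of 500 UMIs it was 3.57 for all members and 2.54 for H2A. With a minimum of 1500 UMIs it was 3.14 for all members, 2.02 for H2A, 5.72 for H2B, 3.98 for H3 and 6.98 for H4. Over all STAR barcodes it was 3.71 for all members and 2.71 for H2A, and without the 5% of nuclei with the most UMIs 3.62 and 2.62. In CPM alone it was 2.20 for all members, 1.15 for H2A, 3.77 for H2B, 3.19 for H3 and 4.28 for H4, with a median over members of 3.52. In CPM outside rRNA and mitochondrial UMIs it was 2.66, 1.60, 4.23, 3.64 and 4.74 in the same order. As a mean over nuclei it was 3.53 for all members. Without H2ac24 and H2ac8, chosen after seeing the data, it was 4.40 for all members and 3.74 for H2A. By STAR H2A without these 2 genes was at 3.63, above H2B at 3.46.

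The share of nuclei with a core histone UMI moved with depth. In the in situ polyadenylated library it was 81.1% by STAR, 50.9% thinned to 750 UMIs, 51.9% and 81.9% with minimums of 500 and 1500 UMIs, and 46.9% over all STAR barcodes. In the standard library these were 45.9%, 14.5%, 14.4%, 34.4% and 9.63%. The log2 ratio of the share in in situ polyadenylated nuclei to that in shallow barcodes was -0.16 against 1 to 100 UMIs and -0.40 against 1 to 10, but turned to 0.34 against barcodes of over 100 and up to 500 UMIs. The cause was not tested. Co-detection in these nuclei was 1.16 times the product of shares in thinned STAR counts. The other 25 values obtained under alternatives lay within the interval of the value reported. No paired analysis was possible because there is only 1 library of each kind. With 1 library each, the spread between libraries is not known, and at most 29 UMIs per gene in the standard library, outside H2ac24 and H2ac8, leave single ratios wide.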
